A study of Mus musculus with 6 samples.

Results

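Cyclin-dependent kinase (CDK) inhibitor genes were followed in 6 expression arrays of mouse embryonic fibroblasts: the CIP/KIP genes Cdkn1a, Cdkn1b and Cdkn1c and the INK4 genes Cdkn2a, Cdkn2b, Cdkn2c and Cdkn2d. Their probe sets were taken by gene symbol, from those that the platform annotation gives to a single gene. This selected 9 of 45037 probe sets, which stand for 7 of 18193 genes. Cdkn1a and Cdkn1b had 2 probe sets each and the other genes 1 each.

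All cells were immortalized KDM5A-/- fibroblasts of a mixed background strain, grown below confluence in medium with serum. They differed in what had been put back: KDM5A-H483A, a form whose catalytic histidine is replaced by alanine, wild-type KDM5A, or an empty vector (EV). Each of these 3 groups had 2 arrays, labelled biological replicates 1 and 2 and called here the first and the second array. The labels do not say how the replicate cultures were separated, how the cells were immortalized, or whether a group is 1 clone, so p-values measure only the spread between these arrays. No group with intact endogenous KDM5A was analysed here, so every comparison is between KDM5A-/- cells.

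Cells move from G1 into DNA replication when cyclin D with Cdk4 or Cdk6, and then cyclin E with Cdk2, phosphorylate the retinoblastoma proteins and release E2F transcription factors. INK4 proteins bind Cdk4 and Cdk6 and keep them from cyclin D. CIP/KIP proteins bind cyclin and CDK together, block cyclin E and cyclin A kinases, and can also help cyclin D kinases assemble. KDM5A removes methyl groups from lysine 4 of histone H3, was first found as a binding partner of the retinoblastoma protein, and has been reported to repress CDKN1A, CDKN1B and CDKN2A in human gastric cancer cells. The comparisons ask whether the RNA of these genes differs with KDM5A present, and whether it differs when the catalytic histidine is replaced.

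Values are log2 RMA expression values. Quantile normalization, a step of RMA, gives the arrays 1 common distribution, and 1 log2 unit is a doubling of signal. Levels of different probe sets cannot be set against each other. RNA was measured in bulk, so fewer cells that express a gene and less of its RNA per cell cannot be told apart. As a background level, the 95th percentile of the mean over 78 probe sets of olfactory and vomeronasal receptor genes was taken, which was 5.30. Above it lay 10 of 11 fibroblast markers, all but Lum, against 2 of 5 haematopoietic, 1 of 5 epithelial, 1 of 4 endothelial, 2 of 4 skeletal muscle and 2 of 4 neural markers. Those of other cell types above it were Cd14, Cd3e, Krt8, Kdr, Des, Acta1, Map2 and Sox10, while Ptprc, Epcam, Pecam1 and Myog lay below it. The Kdm5a probe set with the highest mean stood between 5.83 and 6.11 in every array. The labels do not place it relative to the deleted sequence or the vector's insert, so it checks neither.

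All 7 inhibitor genes had a probe set above the background level in every array. This includes Cdkn2a, the gene that established fibroblast cultures often lose. The nearest to background was Cdkn1c, whose lowest array lay 0.33 above it. One of both Cdkn1b probe sets, 1419497_at, lay below it in every array, between 3.28 and 3.48. Each gene is described by its brighter probe set, and the plot of member values by array shows all 9.

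**Figure D1:**
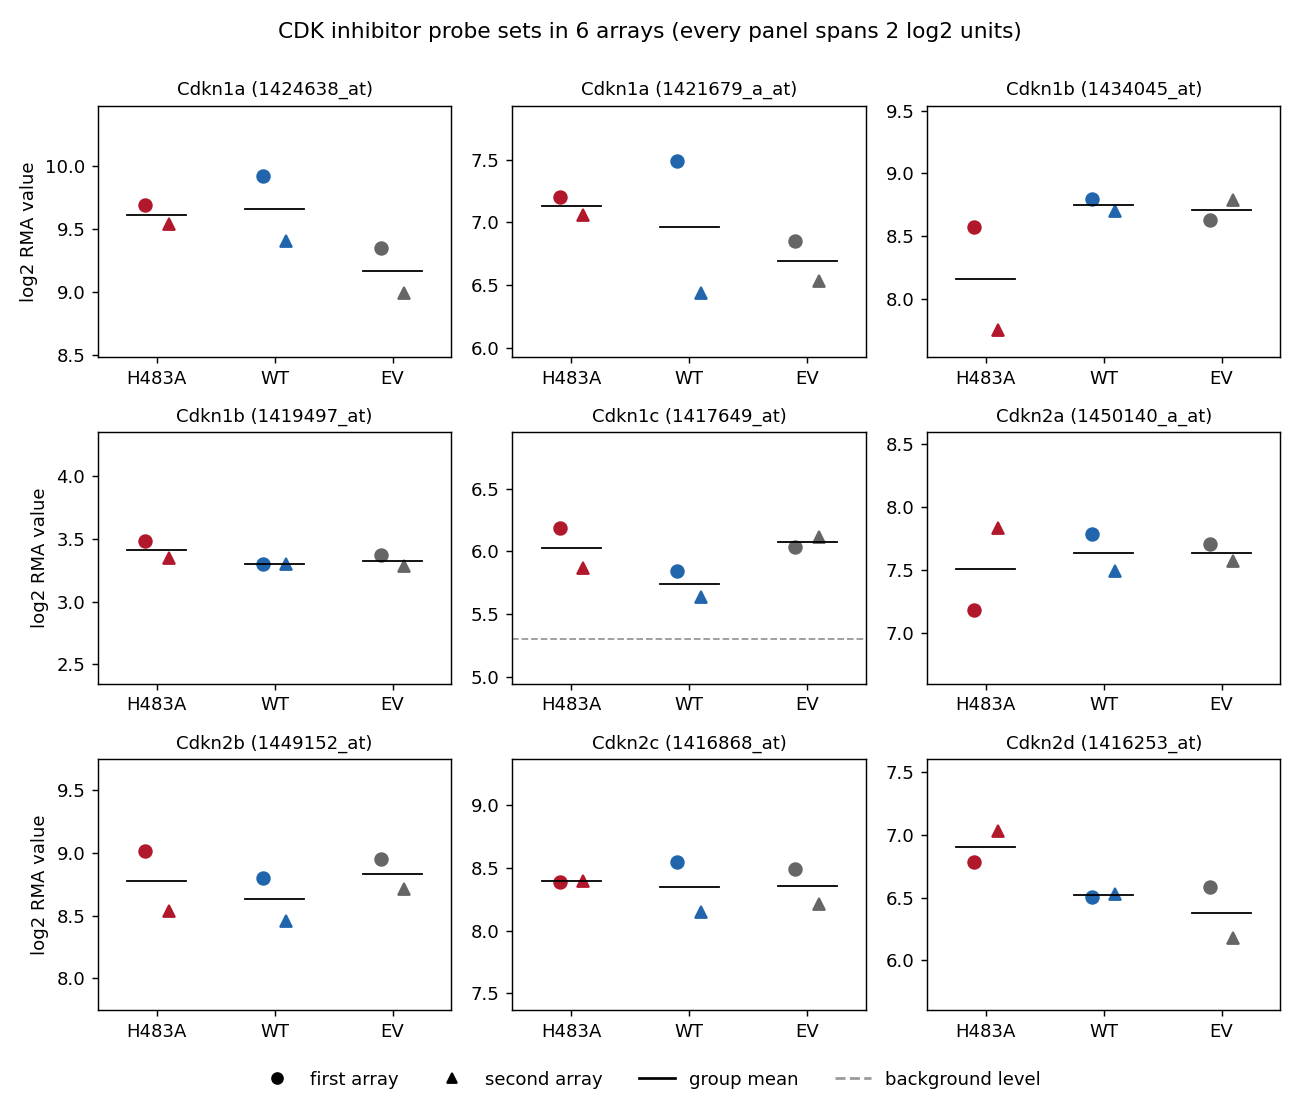
Log2 RMA values (vertical axes, each spanning 2 log2 units) of the 9 CDK inhibitor probe sets in KDM5A-H483A, wild-type KDM5A (WT) and empty vector (EV) fibroblasts. Circles are first arrays, triangles second arrays and bars group means of 2 arrays. The dashed line is the background level of 5.30, which lies outside the other panels. Cdkn1b (1434045_at) was lowest in the second KDM5A-H483A array, at 7.75, and both KDM5A-H483A arrays of Cdkn2d lay above the other 4.

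No inhibitor gene passed the threshold, an adjusted p of 0.05 by limma over all 45037 probe sets. In each comparison 0 of the 7 genes were called, where 0% of all probe sets were called. At an unadjusted p under 0.05, 1 of 7 genes stood apart between KDM5A-H483A and EV, where 2.12% of all genes did. It was Cdkn2d. For wild-type KDM5A against EV and for KDM5A-H483A against wild-type KDM5A the count was 0 of 7, against 3.23% and 4.55% of all genes. The arrays of both groups did not overlap for 3 of 7 genes between KDM5A-H483A and EV, where 28.2% of all genes were so separated. The same held for 2 of 7 genes between wild-type KDM5A and EV, with 31.8% over all genes, and for 3 of 7 between KDM5A-H483A and wild-type KDM5A, with 31% over all genes. In the last comparison 2 of the 3 were higher with KDM5A-H483A and 1 lower, where 14.9% and 16.1% of all genes were. Among so few genes these counts do not set the inhibitors apart from other genes. A permutation of 2 arrays against 2 cannot give a two-sided p below 0.333. The tests therefore rest on limma's spread estimate, which combines a probe set's own spread with that over all probe sets. Both comparisons against EV share the EV arrays.

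Cdkn1a, which encodes p21, the inhibitor that p53 switches on after DNA damage, stood at 9.69 and 9.54 with KDM5A-H483A, 9.92 and 9.40 with wild-type KDM5A, and 9.35 and 9.00 in EV cells. All 4 arrays with a KDM5A form lay above both EV arrays, the second wild-type array only just. The log2 fold change over EV was 0.44 with KDM5A-H483A (unadjusted p = 0.0724, limma adjusted p = 1, 95% CI -0.05 to 0.94, SE 0.21). With wild-type KDM5A it was 0.49 (unadjusted p = 0.0529, limma adjusted p = 1, 95% CI -0.01 to 0.99, SE 0.21). These are 1.36-fold and 1.40-fold. Between KDM5A-H483A and wild-type KDM5A the log2 fold change was -0.05, with a 95% CI of -0.54 to 0.45, and the arrays overlapped. Without the first wild-type array, the difference of wild-type KDM5A over EV was 0.23, without the second it was 0.75, and without the second EV array it was 0.31. Without the second EV array the difference with KDM5A-H483A was 0.27.

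The second Cdkn1a probe set, 1421679_a_at, stood at 7.20 and 7.06 with KDM5A-H483A, 7.49 and 6.44 with wild-type KDM5A, and 6.85 and 6.53 in EV cells. Here the wild-type arrays lay on both sides of the EV arrays, 1.06 apart. Both KDM5A-H483A arrays were above both EV arrays, with a log2 fold change of 0.43 (95% CI -0.35 to 1.22, unadjusted p = 0.227). For wild-type KDM5A it was 0.27 (95% CI -0.51 to 1.05, unadjusted p = 0.436). So both probe sets placed KDM5A-H483A above EV without overlap, and 1 of them placed wild-type KDM5A there.

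The RefSeq promoter table (build GRCm38.p6) held 9 annotated starts for 6 of the 7 inhibitor genes. Their 250 bases before the start were searched for CCGCCC, the letters that the ARID domain of KDM5A was reported to bind, on both strands. Read on the opposite strand they are GGGCGG, the core of the GC box that Sp1 binds, so a match cannot tell these factors apart. Of all 32851 promoters in the table, 32.7% held at least 1 match, 16.7% at least 2 and 8.47% at least 3. Cdkn1a has 2 annotated starts on the plus strand of chromosome 17, 2.79 kb apart, and the array does not separate their transcripts by any label used here. Both are shown, because the downstream one holds 2 matches and the upstream one none. Capitals mark CCGCCC or GGGCGG in the downstream window. In the upstream window they mark ACATGT repeated after 4 bases, a pattern in the form of a p53 site that was sought after the window had been read and that 4 of the 32851 windows held. Only these exact letters were counted, so the count does not give how common p53 sites are.

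Cdkn1a upstream start, chr17:29090729-29090978, plus strand: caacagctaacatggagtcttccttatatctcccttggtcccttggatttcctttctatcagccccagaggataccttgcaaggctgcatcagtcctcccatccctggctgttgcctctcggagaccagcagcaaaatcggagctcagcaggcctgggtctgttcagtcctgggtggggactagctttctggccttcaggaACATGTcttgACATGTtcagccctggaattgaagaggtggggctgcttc
Cdkn1a downstream start, chr17:29093519-29093768, plus strand: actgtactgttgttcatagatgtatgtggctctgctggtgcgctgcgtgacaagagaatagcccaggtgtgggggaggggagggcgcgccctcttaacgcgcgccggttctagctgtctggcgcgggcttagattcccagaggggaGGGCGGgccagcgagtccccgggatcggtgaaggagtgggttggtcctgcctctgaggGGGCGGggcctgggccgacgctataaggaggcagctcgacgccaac

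The repeated hexamers lie at positions -49 to -34 relative to the upstream start. The matches in the downstream window lie at -104 to -99 and -46 to -41 relative to that start. A match describes letters and not binding, which these arrays do not measure.

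Cdkn1b, which encodes p27, the inhibitor that accumulates in resting cells, stood at 8.57 and 7.75 with KDM5A-H483A, 8.79 and 8.70 with wild-type KDM5A, and 8.63 and 8.78 in EV cells. The second KDM5A-H483A array was the low one, 0.82 below its replicate, while the other 5 arrays lay between 8.57 and 8.79. KDM5A-H483A differed from EV by -0.54 on the log2 scale (unadjusted p = 0.0727, limma adjusted p = 1, 95% CI -1.16 to 0.07, SE 0.25), or 1.46-fold lower. Over wild-type KDM5A it was -0.58 (unadjusted p = 0.058, limma adjusted p = 0.927, 95% CI -1.20 to 0.03, SE 0.25). Both differences rest on 1 array: without the second KDM5A-H483A array they were -0.14 and -0.18, and without the first they were -0.95 and -0.99. Wild-type KDM5A and EV overlapped, with a log2 fold change of 0.04 (95% CI -0.57 to 0.65). With both probe sets averaged, KDM5A-H483A over EV was -0.23. The second Cdkn1b probe set, below background, gave 0.09 for KDM5A-H483A over EV.

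Cdkn1c, which encodes p57, an inhibitor expressed from the maternal allele and abundant in embryonic tissues, stood at 6.19 and 5.87 with KDM5A-H483A, 5.84 and 5.64 with wild-type KDM5A, and 6.04 and 6.11 in EV cells. Both wild-type arrays were the lowest of the 6. Wild-type KDM5A differed from EV by -0.33 on the log2 scale (unadjusted p = 0.0655, limma adjusted p = 1, 95% CI -0.70 to 0.03, SE 0.15), or 1.26-fold lower. KDM5A-H483A was above wild-type KDM5A by 0.29 on the log2 scale (unadjusted p = 0.103, limma adjusted p = 0.927, 95% CI -0.08 to 0.65), and the lower KDM5A-H483A array was only just above the higher wild-type array. KDM5A-H483A and EV overlapped, with a log2 fold change of -0.05 (95% CI -0.41 to 0.31). Without the first KDM5A-H483A array the difference between KDM5A-H483A and wild-type KDM5A was 0.13, without the second it was 0.45, and without the second wild-type array it was 0.18. Over EV, wild-type KDM5A stayed below in each fit without 1 array, at -0.44 to -0.23.

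Among the INK4 genes, Cdkn2d had the smallest p of all 7 inhibitors. It encodes p19INK4d, which in development is known from neurons and germ cells. Its values were 6.78 and 7.03 with KDM5A-H483A, 6.51 and 6.53 with wild-type KDM5A, and 6.58 and 6.18 in EV cells. Both KDM5A-H483A arrays were the highest of the 6. The log2 fold change of KDM5A-H483A over EV was 0.52 (unadjusted p = 0.0189, limma adjusted p = 1, 95% CI 0.12 to 0.93, SE 0.17), or 1.44-fold. Over wild-type KDM5A it was 0.39 (unadjusted p = 0.0595, limma adjusted p = 0.927, 95% CI -0.02 to 0.79, SE 0.17). Wild-type KDM5A lay between both EV arrays, with a log2 fold change of 0.14 (95% CI -0.27 to 0.55). Leaving out single arrays gave 0.32 to 0.73 for KDM5A-H483A over EV, lowest without the second EV array and highest without the first. The difference did not pass the threshold under any setting tried.

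Cdkn2b and Cdkn2a lie next to each other on mouse chromosome 4. Cdkn2b encodes p15, the INK4 inhibitor that TGF-beta induces. It stood at 9.02 and 8.53 with KDM5A-H483A, 8.80 and 8.46 with wild-type KDM5A, and 8.95 and 8.71 in EV cells. In each group the first array was above the second, and the groups overlapped in all 3 comparisons. The log2 fold changes were -0.05 for KDM5A-H483A over EV (95% CI -0.55 to 0.44), -0.20 for wild-type KDM5A over EV (95% CI -0.70 to 0.30), and 0.15 for KDM5A-H483A over wild-type KDM5A (95% CI -0.35 to 0.64).

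Cdkn2a encodes 2 unrelated proteins, p16INK4a, which inhibits Cdk4 and Cdk6, and p19ARF, which stabilizes p53, from separate first exons. Its single probe set, 1450140_a_at, stood at 7.18 and 7.83 with KDM5A-H483A, 7.78 and 7.49 with wild-type KDM5A, and 7.71 and 7.57 in EV cells. The KDM5A-H483A arrays were the lowest and the highest of the 6. The log2 fold changes were -0.13 for KDM5A-H483A over EV (95% CI -0.68 to 0.42), -2.8e-05 for wild-type KDM5A over EV (95% CI -0.55 to 0.55), and -0.13 for KDM5A-H483A over wild-type KDM5A (95% CI -0.68 to 0.42). The platform annotation does not say which of both transcripts the probe set reads. In the promoter table the starts lie 12.4 kb apart on the minus strand, with the upstream one placed as known for the ARF transcript.

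Cdkn2c, which encodes p18, varied least of the brighter member probe sets, over 0.40 log2 units. Its values were 8.39 and 8.40 with KDM5A-H483A, 8.55 and 8.15 with wild-type KDM5A, and 8.49 and 8.21 in EV cells. All 3 comparisons overlapped, with log2 fold changes of 0.04, -0.0022 and 0.04 for KDM5A-H483A over EV, wild-type KDM5A over EV, and KDM5A-H483A over wild-type KDM5A. The 95% CI of the first ran from -0.37 to 0.45, so differences of more than about 1.37-fold in either direction lie outside it. The median half-width of this interval over all probe sets was 0.34.

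**Figure D2:**
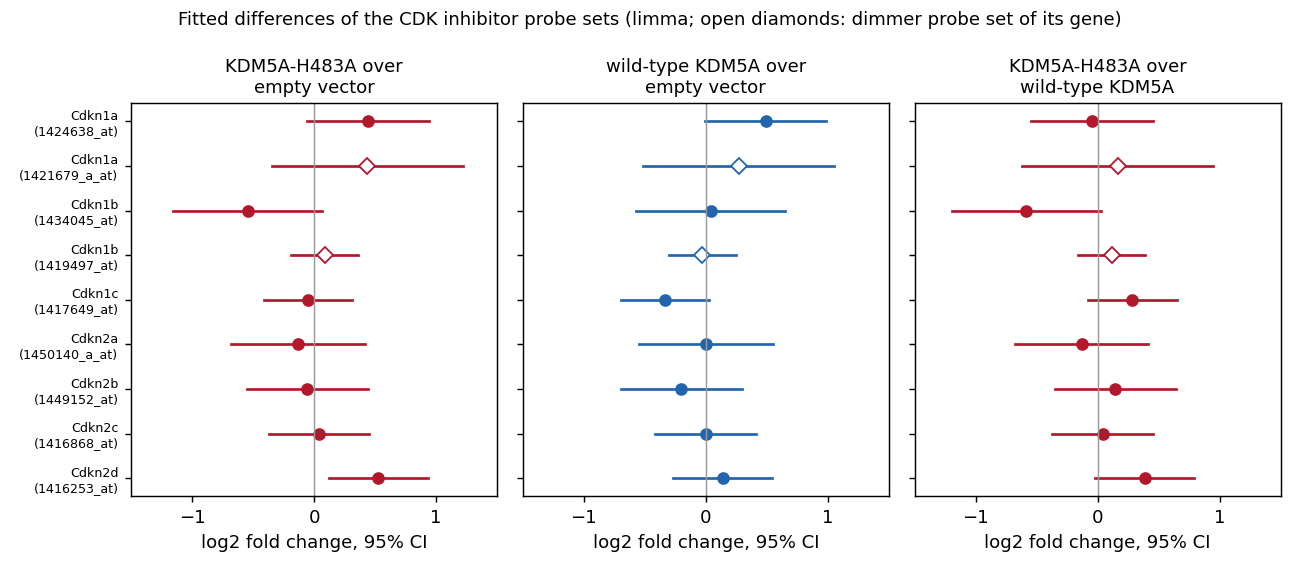
Log2 fold changes (horizontal axes, points) with 95% confidence intervals (lines) from limma for the 9 probe sets in each comparison. Filled circles are the brighter and open diamonds the dimmer probe set of a gene. The interval of Cdkn2d in KDM5A-H483A over empty vector, 0.12 to 0.93, was the only interval that did not cross 0.

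Promoter windows of the other genes that stood furthest apart, Cdkn1b and Cdkn2d, are shown with the same capitals, together with both Cdkn2a starts, since 1 probe set serves both. Cdkn1b held 1 match and Cdkn2d 3, and the Cdkn2a starts held 2 upstream and 0 downstream. The gene annotation extends Cdkn2d to position 21291421, upstream of the start used here. Most of its window, with all 3 matches, therefore lies inside the annotated gene.

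Cdkn1b, chr6:134920151-134920400, plus strand: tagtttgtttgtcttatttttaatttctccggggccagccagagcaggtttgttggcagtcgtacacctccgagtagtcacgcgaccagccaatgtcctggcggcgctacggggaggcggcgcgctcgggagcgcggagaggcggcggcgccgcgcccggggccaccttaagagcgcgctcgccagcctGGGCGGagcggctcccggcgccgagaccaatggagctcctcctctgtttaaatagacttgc
Cdkn2d, chr9:21291210-21291459, minus strand: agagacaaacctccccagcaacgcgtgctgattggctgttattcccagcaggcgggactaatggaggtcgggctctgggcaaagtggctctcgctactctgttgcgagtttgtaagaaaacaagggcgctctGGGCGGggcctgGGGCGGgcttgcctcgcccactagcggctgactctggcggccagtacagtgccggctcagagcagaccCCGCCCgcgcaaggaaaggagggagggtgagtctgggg
Cdkn2a upstream start, chr4:89294620-89294869, minus strand: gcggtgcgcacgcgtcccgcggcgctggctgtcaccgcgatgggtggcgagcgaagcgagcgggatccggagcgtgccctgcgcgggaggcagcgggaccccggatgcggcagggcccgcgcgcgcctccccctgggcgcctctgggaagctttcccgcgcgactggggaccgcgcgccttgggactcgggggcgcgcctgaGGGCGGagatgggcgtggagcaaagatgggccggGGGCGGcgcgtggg
Cdkn2a downstream start, chr4:89282193-89282442, minus strand: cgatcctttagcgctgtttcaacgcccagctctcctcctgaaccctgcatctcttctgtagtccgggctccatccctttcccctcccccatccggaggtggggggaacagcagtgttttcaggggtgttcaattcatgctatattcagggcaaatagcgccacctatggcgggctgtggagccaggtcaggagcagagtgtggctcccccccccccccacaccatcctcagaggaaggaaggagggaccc

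Of the remaining starts, the upstream Cdkn2c start held 3 matches, and the downstream Cdkn2c start and Cdkn2b held 0. The windows with matches had a GC content of 63.6% to 78.4%, and those without had 42.8% to 60%. CCAAT, the box that NF-Y binds, matched in Cdkn1b, with 2 copies, and in Cdkn2d, with 1, where 33.8% of all promoters held at least 1. TATAAA and the E-box CACGTG matched in none of the 9 windows, against 12.4% and 6.02% of all promoters.

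**Figure D3:**
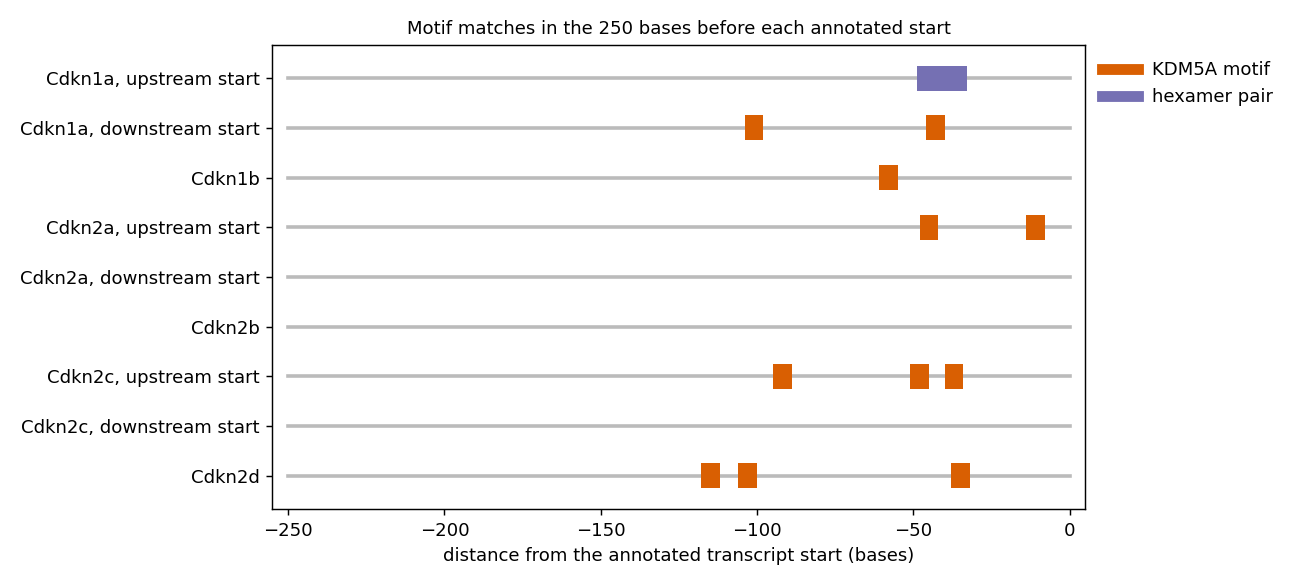
Position of the matches to the KDM5A motif (orange) and of the repeated hexamer (violet) in the 250 bases before each annotated start of 6 inhibitor genes. The horizontal axis is the distance from the start in bases, and each grey line is 1 window. There, 5 of the 9 windows hold a KDM5A motif match, with up to 3 in Cdkn2c and Cdkn2d. Of all promoters, 32.7% hold at least 1 and 8.47% at least 3. The same letters are the core of the GC box that Sp1 binds.

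Several inhibitors differed as much between the replicate arrays of a group as between groups. First minus second array was 0.82 for Cdkn1b and -0.65 for Cdkn2a with KDM5A-H483A, and 0.52 for Cdkn1a with wild-type KDM5A. Replicates lay at least 0.5 apart for 2 of 7 genes with KDM5A-H483A, 1 of 7 with wild-type KDM5A and 0 of 7 with EV, where 23.6%, 17.2% and 6.09% of the 17323 probe sets above background did. In the first of 2 wild-type KDM5A arrays 6 of 7 inhibitors were higher, in the KDM5A-H483A group 4 of 7, and in the EV group 5 of 7. Fibroblast markers and proliferation markers also separated first from second arrays in the groups with a KDM5A form. For the 11 fibroblast markers, the EV mean of each gene was subtracted before the median was taken in each array. This median was higher in the first array by 1.07 for KDM5A-H483A, 1.15 for wild-type KDM5A and 0.22 for EV. Without the subtraction, first and second array medians were 9.29 and 8.04 (KDM5A-H483A), 9.65 and 8.43 (wild-type KDM5A), 9.16 and 8.42 (EV). The EV arrays of these markers were thus further apart in median level than after subtraction. Their summed linear level ran from 26493 to 39758 with KDM5A-H483A, 24476 to 42299 with wild-type KDM5A and 33544 to 36177 with EV. The 18 proliferation markers, all above background, were treated in the same way. Their median after subtraction differed between first and second array by -0.39, -0.37 and 0.0034 in the same groups. Without it, the medians of these markers were 8.08 and 8.64, 8.26 and 8.57, 8.30 and 8.27. Their summed linear level ran from 7055 to 9979, from 6977 to 8805 and from 7781 to 8098. The part of these shifts in the inhibitor values was not tested.

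**Figure D4:**
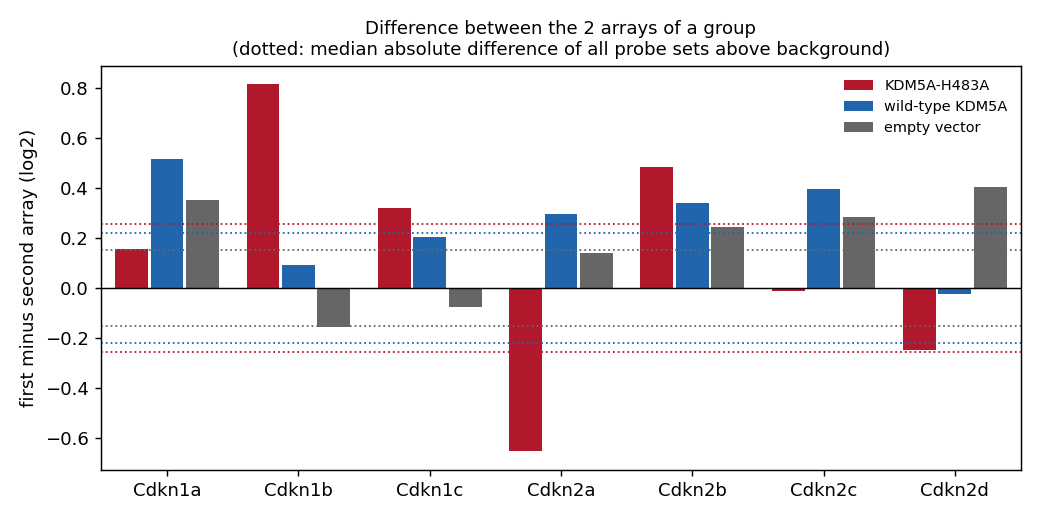
Difference between the first and the second array of each group (vertical axis, log2 units) for the brighter probe set of each inhibitor gene. Bars are KDM5A-H483A (red), wild-type KDM5A (blue) and empty vector (grey), and dotted lines the median absolute difference over all probe sets above background (0.26, 0.22 and 0.15). The longest bars are Cdkn1b, 0.82, and Cdkn2a, -0.65, both with KDM5A-H483A.

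Of the cyclins and kinases on which the inhibitors act, 10 of 11 listed genes were measured and 0 passed the threshold in any comparison. Cyclin D1 (Ccnd1), the partner of Cdk4 and Cdk6, stood at 10.54 and 10.72 with KDM5A-H483A, 10.51 and 10.44 with wild-type KDM5A, and 10.02 and 9.98 in EV cells. All 4 arrays with a KDM5A form were above both EV arrays. The log2 fold change over EV was 0.63 with KDM5A-H483A (unadjusted p = 0.00152, limma adjusted p = 1, 95% CI 0.34 to 0.92) and 0.47 with wild-type KDM5A (unadjusted p = 0.00641, limma adjusted p = 1, 95% CI 0.19 to 0.76). Cdk6 stood at 7.83 and 8.19 with KDM5A-H483A, 7.39 and 7.76 with wild-type KDM5A, and 8.03 and 8.01 in EV cells. It was lowest with wild-type KDM5A, at -0.45 against EV (unadjusted p = 0.0442). Cdk2, the kinase that CIP/KIP proteins block, was at -0.49 with KDM5A-H483A over wild-type KDM5A (95% CI -0.90 to -0.07, unadjusted p = 0.0281). It stood at 7.87 and 7.39 with KDM5A-H483A, 8.16 and 8.08 with wild-type KDM5A, and 7.86 and 7.96 in EV cells. The second KDM5A-H483A array, also low for Cdkn1b, was the lowest, and the first lay between both EV arrays. Ccna2, cyclin A2, was at -0.20 with KDM5A-H483A over EV. The median over the 10 genes was 0.04 for KDM5A-H483A over EV, 0.11 for wild-type KDM5A over EV and -0.11 for KDM5A-H483A over wild-type KDM5A. Over all genes it was 0.00099, 0.0049 and -0.0069.

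All 13 retinoblastoma and E2F genes were measured and 0 passed. Rbl1, which encodes the retinoblastoma relative p107, stood at 7.58 and 6.74 with KDM5A-H483A, 7.81 and 7.74 with wild-type KDM5A, and 7.59 and 7.70 in EV cells, low in the same array as Cdkn1b. With KDM5A-H483A over wild-type KDM5A 11 of 13 lay below 0, with a median of -0.13. E2f5, a repressive E2F, went the other way, at 0.46 with KDM5A-H483A over wild-type KDM5A (unadjusted p = 0.0173, limma adjusted p = 0.927, 95% CI 0.11 to 0.80). It was at -0.40 with wild-type KDM5A over EV (unadjusted p = 0.0296) and at 0.06 with KDM5A-H483A over EV, and both wild-type arrays were the lowest of the 6. Lists given below also lay mostly under 0 with KDM5A-H483A over wild-type KDM5A. They were 8 of 10 ubiquitin ligase genes, with a median of -0.19, and 18 of 23 transcriptional regulators, with -0.16. The medians of proliferation markers and other p53 targets were above 0, at 0.14 and 0.08.

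Ubiquitin ligases control CIP/KIP proteins after translation, which an RNA measurement does not see. Of 10 listed ligase genes 10 were measured, 0 passed, and 5 lay below EV without overlap with KDM5A-H483A, against 1 above, where 14.6% and 13.6% of all genes did. Skp2, the F-box protein that marks p27 for destruction, stood at 9.48 and 8.65 with KDM5A-H483A, 9.14 and 9.39 with wild-type KDM5A, and 9.68 and 9.55 in EV cells. All 4 arrays with a KDM5A form lay below both EV arrays, at -0.54 with KDM5A-H483A (95% CI -1.18 to 0.09) and -0.35 with wild-type KDM5A (95% CI -0.98 to 0.29) on the log2 scale. Skp1, its adaptor, and Cul1, its scaffold, were at -0.48 (unadjusted p = 0.0361) and -0.29 (unadjusted p = 0.0835) with KDM5A-H483A over wild-type KDM5A. Skp1 stood at 10.24 and 9.81 with KDM5A-H483A and at 10.35 and 10.66 with wild-type KDM5A, lowest in the array where Cdkn1b was low. The RING subunit Rbx1, at -0.33 with KDM5A-H483A over EV (unadjusted p = 0.0446), had a mean below the background level.

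Among transcriptional regulators of the inhibitor genes, 23 of 24 were measured and 0 passed. The count above EV without overlap was 2 with KDM5A-H483A and 6 with wild-type KDM5A, and the count below was 3 and 2. Over all genes the shares were 13.6% above and 14.6% below with KDM5A-H483A, and 16.5% above and 15.4% below with wild-type KDM5A. Klf4, a factor that can activate Cdkn1a, stood at 7.72 and 8.06 with KDM5A-H483A, 7.78 and 8.28 with wild-type KDM5A, and 7.26 and 7.54 in EV cells. All 4 arrays with a KDM5A form were above both EV arrays. With KDM5A-H483A Klf4 differed from EV by 0.49 (95% CI -0.02 to 1.00, unadjusted p = 0.057), and with wild-type KDM5A by 0.63 (95% CI 0.12 to 1.14, unadjusted p = 0.0226). Foxo3, a forkhead factor that activates Cdkn1b, was at 0.54 with wild-type KDM5A over EV (95% CI 0.10 to 0.98, unadjusted p = 0.0227) and at -0.40 with KDM5A-H483A over wild-type KDM5A (unadjusted p = 0.0707). Bmi1, the polycomb protein that represses Cdkn2a, was at -0.26 with KDM5A-H483A over wild-type KDM5A (95% CI -0.52 to 0.01, unadjusted p = 0.0594). Id1, an inhibitor of helix-loop-helix factors, was at 0.70 with KDM5A-H483A over EV, with overlapping arrays of 8.22 and 9.29 against 8.31 and 7.79.

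Among other targets of p53, the activator of Cdkn1a, 0 of 18 measured genes passed. With KDM5A-H483A, 8 of 18 lay above EV without overlap and 0 below, while for wild-type KDM5A the counts were 6 and 0. Over all genes these shares were 13.6% above and 14.6% below with KDM5A-H483A, and 16.5% and 15.4% with wild-type KDM5A. The median log2 fold change was 0.16 and 0.25. Mdm2, the ligase that degrades p53, stood at 8.43 and 8.79 with KDM5A-H483A, 8.44 and 8.28 with wild-type KDM5A, and 8.13 and 7.83 in EV cells. Its log2 fold change with KDM5A-H483A over EV was 0.63 (unadjusted p = 0.00937, limma adjusted p = 1, 95% CI 0.21 to 1.04). Ccng1, cyclin G1, stood at 10.75 and 10.78 with KDM5A-H483A, 10.93 and 11.01 with wild-type KDM5A, and 10.51 and 10.45 in EV cells. For both genes all 4 arrays with a KDM5A form were above both EV arrays. The log2 fold change of Ccng1 with wild-type KDM5A over EV was 0.49 (unadjusted p = 0.00352, limma adjusted p = 1, 95% CI 0.23 to 0.75). Perp, a desmosome-associated gene, was at 0.92 with KDM5A-H483A over EV (unadjusted p = 0.0189), and the receptor gene Eda2r at 0.59 with wild-type KDM5A over EV (unadjusted p = 0.0372). Both EV arrays of each of these genes lay below the background level, so their differences are measured against a level not above background. Gadd45a, a DNA damage response gene, was at 0.31 with KDM5A-H483A over wild-type KDM5A (unadjusted p = 0.101) and lay below the background level.

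**Figure D5:**
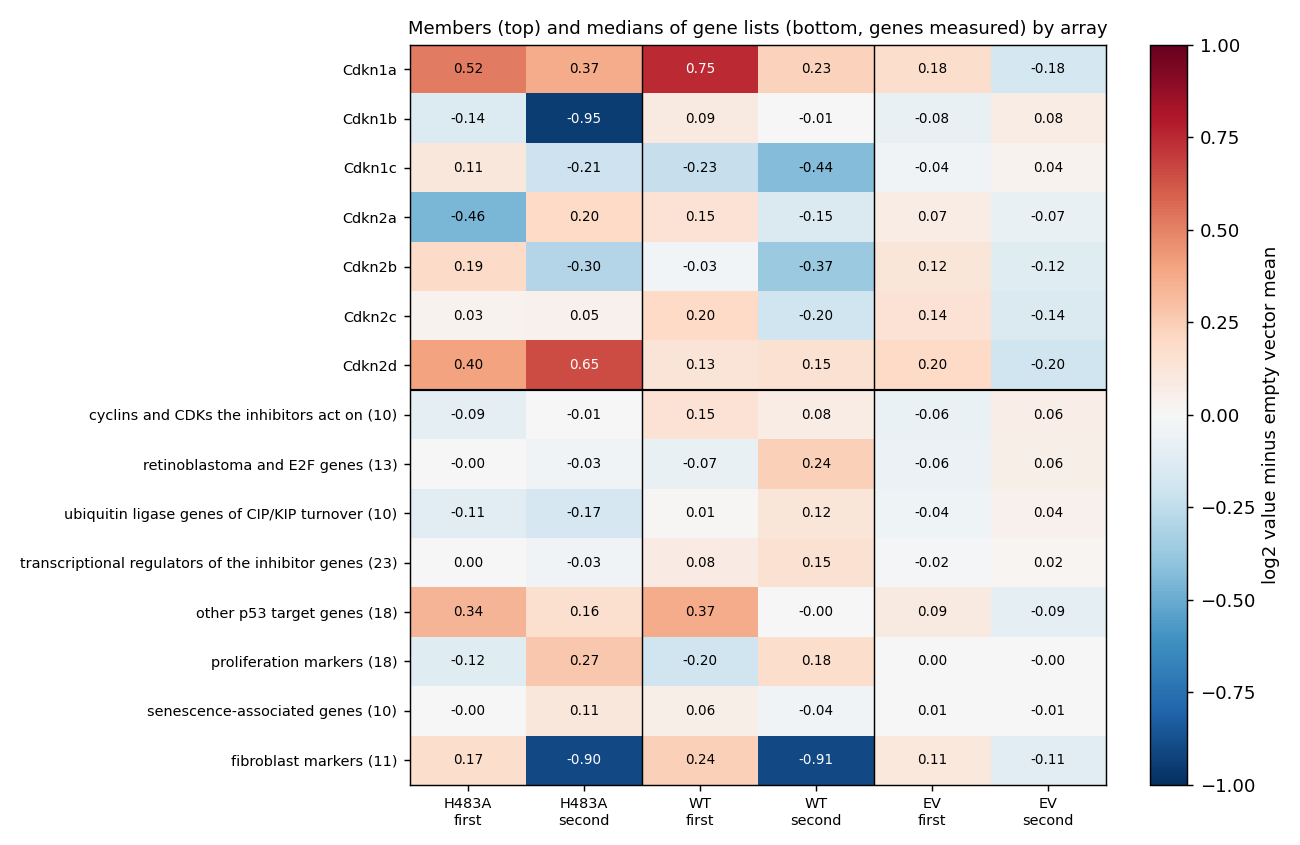
Log2 value minus the empty vector mean (colour and printed number) in each array for the 7 inhibitor genes (top) and, below the line, the median of the gene lists with the number of genes measured. Columns are the first and second arrays of KDM5A-H483A (H483A), wild-type KDM5A (WT) and empty vector (EV). Cdkn1a was above 0 in all 4 arrays with a KDM5A form, and fibroblast markers stood at -0.90 and -0.91 in the second arrays of these groups.

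Proliferation and senescence genes were read in the same arrays. Of 18 proliferation markers 0 passed. Their log2 fold changes were above 0 for 15 of 18 with KDM5A-H483A over EV, with a median of 0.06, and below 0 for 11 of 18 with wild-type KDM5A over EV, with a median of -0.06. With KDM5A-H483A over wild-type KDM5A 12 of 18 were above 0, with a median of 0.14, so Ccnb2 and Aurkb, named for their p, ran against the balance of the list in both comparisons with wild-type KDM5A. Ccnb2, cyclin B2, stood at 8.18 and 8.14 with KDM5A-H483A, 8.67 and 8.56 with wild-type KDM5A, and 8.24 and 8.35 in EV cells, and was thus highest with wild-type KDM5A. The log2 fold change was -0.46 for KDM5A-H483A over wild-type KDM5A (unadjusted p = 0.00643, limma adjusted p = 0.927, 95% CI -0.73 to -0.18) and 0.32 for wild-type KDM5A over EV (unadjusted p = 0.0294). The mitotic kinase gene Aurkb was at -0.50 (unadjusted p = 0.0257) and 0.55 (unadjusted p = 0.0188) in these comparisons. Mcm6, of the replicative helicase, was at 0.41 with KDM5A-H483A over EV (unadjusted p = 0.279).

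Of 12 genes associated with senescence 10 were measured and 0 passed. Glb1, which encodes the beta-galactosidase stained in senescent cells, stood at 6.27 and 6.89 with KDM5A-H483A, 6.61 and 6.39 with wild-type KDM5A, and 6.01 and 6.05 in EV cells. Its 4 arrays with a KDM5A form were above both EV arrays, by 0.55 with KDM5A-H483A (95% CI 0.04 to 1.05, unadjusted p = 0.0377) and by 0.47 with wild-type KDM5A (95% CI -0.04 to 0.98, unadjusted p = 0.0636). Lmnb1, the lamin B1 gene, which is lost in senescent cells, was at -0.29 with wild-type KDM5A over EV (unadjusted p = 0.107) and at 0.27 with KDM5A-H483A over wild-type KDM5A (unadjusted p = 0.129). Plaur, the urokinase receptor gene, was at 0.38 with KDM5A-H483A over EV and Hmgb2, a chromatin protein gene, at 0.33 with KDM5A-H483A over wild-type KDM5A, both with overlapping arrays.

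Genes that carry the inhibitors' names without belonging to either family were measured as well. They were Cdkn3, a phosphatase acting on CDKs, and Cdkn2aip and Cdkn2aipnl, an ARF-binding protein and its relative, and 0 of 3 passed. Cdkn2aipnl was at 0.63 with KDM5A-H483A over EV (95% CI 0.02 to 1.24, unadjusted p = 0.0438), while Cdkn3 was at 0.15 and Cdkn2aipnl at 0.19 with wild-type KDM5A over EV. With KDM5A-H483A, Cdkn2aip, below the background level, was at -0.10 over EV and -0.23 over wild-type KDM5A.

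The nearest measured neighbours on the chromosome were read in the same fit. Kri1 lies beside Cdkn2d and read 6.74 and 6.91 in the KDM5A-H483A arrays and 6.57 and 6.64 in the EV arrays, a log2 difference of 0.22 (unadjusted p = 0.111) in the direction of Cdkn2d. The wild-type KDM5A arrays of Kri1, 6.71 and 6.76, were also above both EV arrays, by 0.13, where those of Cdkn2d lay between them. Ap1m2 on the other side of Cdkn2d was at -0.08 with KDM5A-H483A over EV and lay below the background level. For Cdkn1a, Srsf3 and Rab44 were at -0.22 and -0.28 with KDM5A-H483A over EV and at -0.04 and -0.13 for wild-type KDM5A over EV, opposite in sign to Cdkn1a at 0.44 and 0.49, with Rab44 below the background level. For Cdkn1b, Apold1 was at -0.28 with KDM5A-H483A over EV, with arrays of 5.14 and 5.52 against 5.58 and 5.65. Its low array was the first, below the background level, where the low array of Cdkn1b was the second. Gpr19, on the other side of Cdkn1b, lay below the background level in every array. Mtap, the metabolic gene beside Cdkn2a that is often deleted with it in tumours, stood between 10.48 and 10.77 in all arrays.

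Genes whose profile over the 6 arrays was most like that of an inhibitor were found by the root mean square difference of centred log2 values, among the 6762 genes that span at least 0.5 log2 units. With so many genes and 6 arrays a close profile is found for any gene, and the arrays share their labelling and normalization. For Cdkn1b the nearest were Rbl1, Zfp931 and Lrif1, at 0.042, 0.042 and 0.049 log2 units. For Cdkn1a they were Cflar, Enpp5 and Scara3, at 0.058, 0.076 and 0.077. For Cdkn2d they were Uqcc3, Sqor and Mbd3, at 0.057, 0.067 and 0.069. Cdkn1c was nearest to Gmip, Nsl1 and Srp72, at 0.040 to 0.049, and Cdkn2b to Col22a1, Hspa12b and Ssc5d, at 0.040 to 0.054, of which Col22a1 and Hspa12b stayed below the background level in every array. The genes nearest to Cdkn2a were Myo5c, Cacng5 and Wrap53, at 0.056 to 0.068, and the same limit holds for Myo5c and Cacng5. Wrap53, Mbd3, Gmip and Zfp931 lay below the background level in part of the arrays. Cdkn2c spanned less than 0.5 and was not compared.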

How the data were processed

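The authors deposited log2 expression values of Affymetrix mouse M430 2.0 arrays, which per the submitters' processing notes come from RMA. Which software version was used is not stated there. RMA subtracts background, quantile-normalizes and summarises each probe set, compresses differences of dim genes, and keeps no molecule counts, so the number of arrays limits precision. Array medians lay between 4.55 and 4.60.

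Of 45101 probe sets, 64 array-maker controls were left out. Symbols were updated by Entrez ID (34754 of 34958 single-gene probe sets matched). For each gene the brightest probe set on average was used, avoiding _x_at probe sets where possible. Limma 3.58.1 (R 4.3.3) was fitted to all 45037 probe sets and 6 arrays with 1 mean per group (lmFit, eBayes), two-sided, with Benjamini-Hochberg adjustment. The fit had 3 residual and 3.52 prior degrees of freedom and was tested on simulated data. All log2 fold changes, intervals and p-values come from it. Group labels came from the sample titles. The members and gene lists were chosen with earlier results of these data known. In each list, the rule named the 2 genes with the smallest unadjusted p per comparison where none passed. Listed genes without a probe set were not analysed here.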

Additional observations from a re-analysis of the deposited data

How the results depend on the processing

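Alternatives to the fit were a replicate block, 1 probe set per gene, only probe sets above the background level, arrays centred on their median, an intensity trend with a robust prior, the mean over all probe sets of a gene, and leaving out each array. No probe set was called in any comparison under the 11 settings for which all probe sets were counted, and no member passed with the probe sets of a gene averaged. The smallest adjusted p was 0.320 to 1 for KDM5A-H483A over EV, 0.197 to 1 for wild-type KDM5A over EV and 0.280 to 0.997 for KDM5A-H483A over wild-type KDM5A, while 160 to 4330, 300 to 1967 and 521 to 4886 probe sets had an unadjusted p under 0.05. Of 126 member values outside the fits without 1 array, 123 kept their direction. Most of them could not turn. The replicate block, the intensity trend and the restricted choices of probe sets leave a member's log2 fold change as it is. Averaging probe sets alters only Cdkn1a and Cdkn1b. The 3 that turned were close to 0: Cdkn2a and Cdkn2c in wild-type KDM5A over EV, at 0.029 and 0.027 with centred arrays, and Cdkn1a in KDM5A-H483A over wild-type KDM5A, at 0.059 with its probe sets averaged. The cause was not tested.

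Leaving out single arrays turned the direction in 19 of 126 values. Among the 126 are fits without an array of the group outside the comparison, which leave the difference as it is and could not turn it. For KDM5A-H483A over EV the ranges that cross 0 were -0.21 to 0.11 for Cdkn1c, -0.46 to 0.20 for Cdkn2a, -0.30 to 0.19 for Cdkn2b and -0.10 to 0.18 for Cdkn2c. For wild-type KDM5A over EV they were -0.038 to 0.12 for Cdkn1b, -0.15 to 0.15 for Cdkn2a, -0.20 to 0.20 for Cdkn2c and -0.063 to 0.34 for Cdkn2d. For KDM5A-H483A over wild-type KDM5A they were -0.30 to 0.21 for Cdkn1a, -0.46 to 0.20 for Cdkn2a, -0.10 to 0.39 for Cdkn2b and -0.16 to 0.24 for Cdkn2c. A group left with 1 array is assumed to vary like the other groups. Cdkn2d in KDM5A-H483A over EV had an unadjusted p of 0.00817 to 0.121, under 0.05 in 10 of 12 alternatives.

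The labels do not pair the arrays by replicate number. Deviations of the first arrays from their group means correlated across probe sets at 0.03 between KDM5A-H483A and EV, 0.27 between wild-type KDM5A and EV and 0.49 between KDM5A-H483A and wild-type KDM5A. With the replicate number as a block, Cdkn1a had an unadjusted p of 0.0152 with KDM5A-H483A and 0.00982 with wild-type KDM5A over EV, and no gene was called.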
